A study of Mus musculus with 7 samples.

Results

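Ly6G/Ly6C, the antigen pair of neutrophils and monocytes, was followed as 1 of 25 target proteins measured around vascular amyloid in the brains of 7 aged PDAPP mice. These mice carry a transgene for a mutant human amyloid precursor protein, driven by a platelet-derived growth factor promoter that is active mainly in neurons, and all groups shared it. The 4 mice of the 3D6 group received an IgG2b antibody against Aβ (25 mg/kg, 1 injection a week). The 3 mice of the IgG group received an IgG2a isotype control (50 mg/kg, 2 injections a week). Both were given under the skin for 3 months, and the methods give 23 to 26 months as the age of the dosed mice. Dose, isotype and number of injections therefore differed together with the antibody. With the GeoMx digital spatial profiler, oligonucleotide tags on antibodies were released by ultraviolet light from circles of 100 μm and counted. Regions were placed on amyloid-bearing vessels, identified by amyloid and laminin staining. Regions 1 to 12 of a mouse lay in the leptomeninges, the thin membranes that carry the arteries of the brain surface, and regions 13 to 24 lay on penetrating vessels. Values existed for 166 of 168 regions, 48 leptomeningeal and 48 penetrating in 3D6 mice, and 34 and 36 in IgG mice.

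Ly6G and Ly6C are small glycoproteins held in the cell membrane by a lipid anchor. Ly6G marks mouse neutrophils, whereas Ly6C is high on the inflammatory monocytes that leave the blood for injured tissue and is also found on some endothelial cells and T cells. An antibody to both does not separate them, and in a circle of tissue more positive cells and more antigen per cell cannot be told apart. The smooth muscle protein SMA, which marks the wall of arteries, averaged 7.86 ± 0.77 in 3D6 mice and 9.66 ± 0.22 in IgG mice in the leptomeninges (log2 over the negative controls, SD over mice), so arterial wall was present in both. Each Ly6G/Ly6C count was divided by the geometric mean of the 3 isotype antibodies that serve as negative controls, 2 from rat (Rt IgG2a, Rt IgG2b) and 1 from rabbit (Rb IgG), in its region and taken as log2. A value of 0 is the level of the controls, and 1 is 2 times that level. Values were averaged over the regions of a mouse, and the mouse was the unit of the tests reported here.

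The signal was low. The median deposited count of a region was 32.4 in the leptomeninges of 3D6 mice, against 36.3 in IgG mice, and 35.8 on penetrating vessels of 3D6 mice, against 49.3 in IgG mice. All 166 Ly6G/Ly6C values were whole numbers of tags (within 0.02, wider for very large counts) after division by 2 factors. These were the positive-control factor of the region and a protein factor, picked from the values so that most became whole. These whole counts had a median of 37 per region and went down to 2. Of the leptomeningeal regions, 31 of 48 in 3D6 mice and 13 of 34 in IgG mice exceeded the highest of the 3 negative controls, as did 37 of 48 penetrating regions in 3D6 mice and 29 of 36 in IgG mice. Single mice differed widely. The leptomeningeal regions above were 12, 12, 3 and 4 of 12 in 3D6 mice 72, 77, 81 and 83. In IgG mice 29, 37 and 49 they were 6 of 12, 7 of 10 and 0 of 12.

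The order of the 4 mean levels was penetrating vessels of IgG mice (1.81 ± 0.66, SD, n = 3), penetrating vessels of 3D6 mice (1.49 ± 0.87, n = 4), leptomeninges of 3D6 mice (1.42 ± 1.02, n = 4) and leptomeninges of IgG mice (0.48 ± 0.98, n = 3). In terms of ratios these were 3.52, 2.80, 2.67 and 1.39 times the negative controls. No 2 neighbours in this order differed by more than the larger of their SDs over mice.

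**Figure D1:**
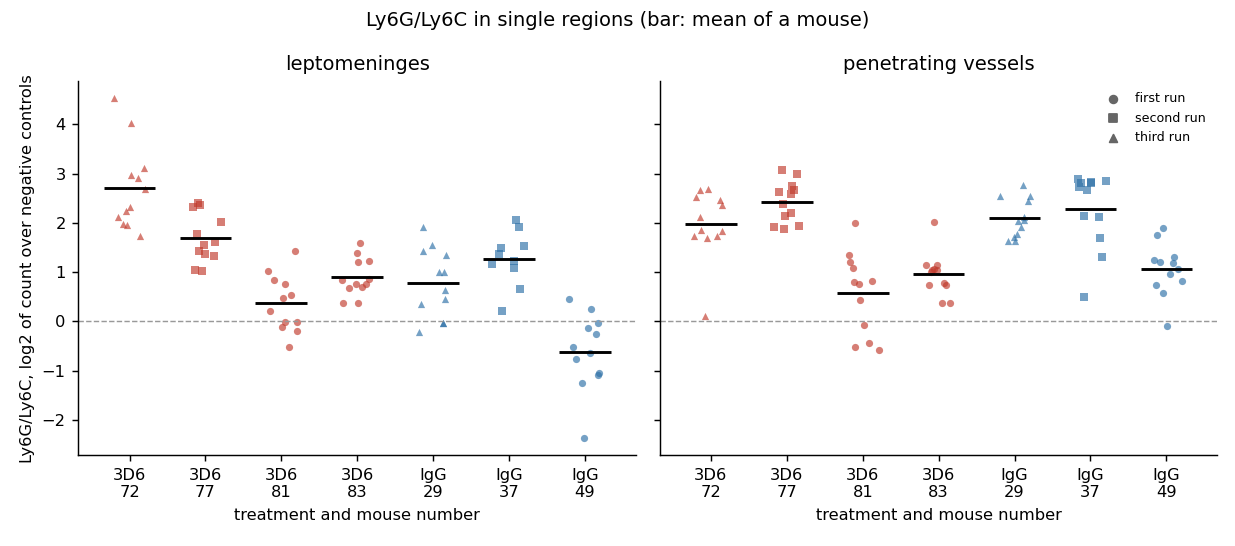
Ly6G/Ly6C in every region, as log2 of the count over the negative controls (y axis), for each mouse (x axis) in the leptomeninges and on penetrating vessels. Points are regions, shaped by nCounter run, bars are means of a mouse, and the dashed line is the level of the controls. In the leptomeninges 3D6 mouse 72 stands highest at 2.72 and IgG mouse 49 lowest at -0.62.

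In the leptomeninges mean Ly6G/Ly6C was higher in the mice given 3D6, but the groups overlapped and the difference did not pass the test. The mouse means were 2.72, 1.69, 0.36 and 0.89 in 3D6 mice 72, 77, 81 and 83, against 0.79, 1.27 and -0.62 in IgG mice 29, 37 and 49. Mice 72 and 77 lay above every IgG mouse, whereas mice 81 and 83 lay within the range of the IgG mice. The difference was 0.94 (SE 0.60, limma adjusted p = 0.243), or 1.91-fold, and an exact permutation test over all 35 ways to split the mice gave p = 0.343 (two-sided, smallest possible p 0.0286). Of the 25 proteins, 5 passed the threshold of adjusted p under 0.05 (20%), and Ly6G/Ly6C was not among them. Without IgG mouse 49 the difference was 0.39, without 3D6 mouse 72 it was 0.50, and over all mice left out in turn it reached 1.33 at most. Its difference was the ninth largest in the positive direction and exceeded the median of all 25 proteins, 0.57. The denominator moved with the groups. The negative controls averaged 3.84 ± 0.39 in 3D6 mice and 4.46 ± 0.19 in IgG mice (mean log2 count), and all 4 3D6 mice were below all 3 IgG mice (exact permutation p = 0.0571). Without division, the Ly6G/Ly6C difference was 0.33, with division by the housekeepers it was 0.098, with Rt IgG2a alone 0.56 and with Rb IgG alone 1.26. The median of all 25 proteins moved by -0.61 without division and by -0.84 with the housekeepers.

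The other myeloid proteins of the leptomeninges did not all behave alike. CD11b, an integrin subunit of monocytes, neutrophils and macrophages, rose by 1.59 (SE 0.43, limma adjusted p = 0.0190). F4/80, an antigen of mature macrophages, rose by 1.48 (SE 0.35, adjusted p = 0.0110). CD14, the co-receptor for lipopolysaccharide, differed by -0.58, the scavenger receptor CD163 by -0.60 and the dendritic cell integrin CD11c by 0.78, and none of these 3 passed the threshold. Thus 2 of the 6 myeloid proteins rose and none fell, with a median difference of 0.86, where 4 of all 25 proteins rose and 1 fell, with a median of 0.57. CD45, carried by all leukocytes, rose by 2.46 (SE 0.36, adjusted p = 0.000959), and SMA fell by 1.79 (SE 0.43, adjusted p = 0.0110). Set against CD45 in the same region, a ratio chosen after the values were seen in which the negative controls cancel, Ly6G/Ly6C was lower in 3 of 4 3D6 mice than in every IgG mouse. This difference was -1.52 (exact permutation p = 0.114, adjusted p = 0.514 over 9 such ratios). Set against CD11b and F4/80 it was smaller, at -0.65 and -0.55 (exact permutation p = 0.429 for each).

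On penetrating vessels the groups overlapped, with the 3D6 mice more widely spread. The mouse means were 1.98, 2.43, 0.57 and 0.96 in 3D6 mice 72, 77, 81 and 83, against 2.10, 2.28 and 1.06 in IgG mice 29, 37 and 49. Mouse 77 lay above every IgG mouse, and mice 81 and 83 lay below every IgG mouse. The difference was -0.33 (SE 0.51, limma adjusted p = 0.802, exact permutation p = 0.629). It was negative under all 21 other settings and passed in none, from -1.28 without division to -0.0236 without 3D6 mouse 81, and was -0.71 without IgG mouse 49. The value without division includes regions of high background in IgG mouse 37. Its mean log2 count there was 8.77, against 5.57 and 4.85 in IgG mice 29 and 49. By limma 0 of 25 proteins (0%) passed the threshold there, with 2 at an unadjusted p under 0.05, and the unmoderated test with the Holm-Sidak adjustment also called 0. Relative to CD45, Ly6G/Ly6C averaged -0.95 ± 0.94 in 3D6 mice and 0.35 ± 0.38 in IgG mice. All 4 3D6 mice lay below all 3 IgG mice in this ratio, although the closest 2 were at -0.093 and -0.076 (exact permutation p = 0.114, adjusted p = 0.514). Relative to CD11b and F4/80 the differences were -0.56 and -0.84 (exact permutation p = 0.371 and 0.257).

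**Figure D2:**
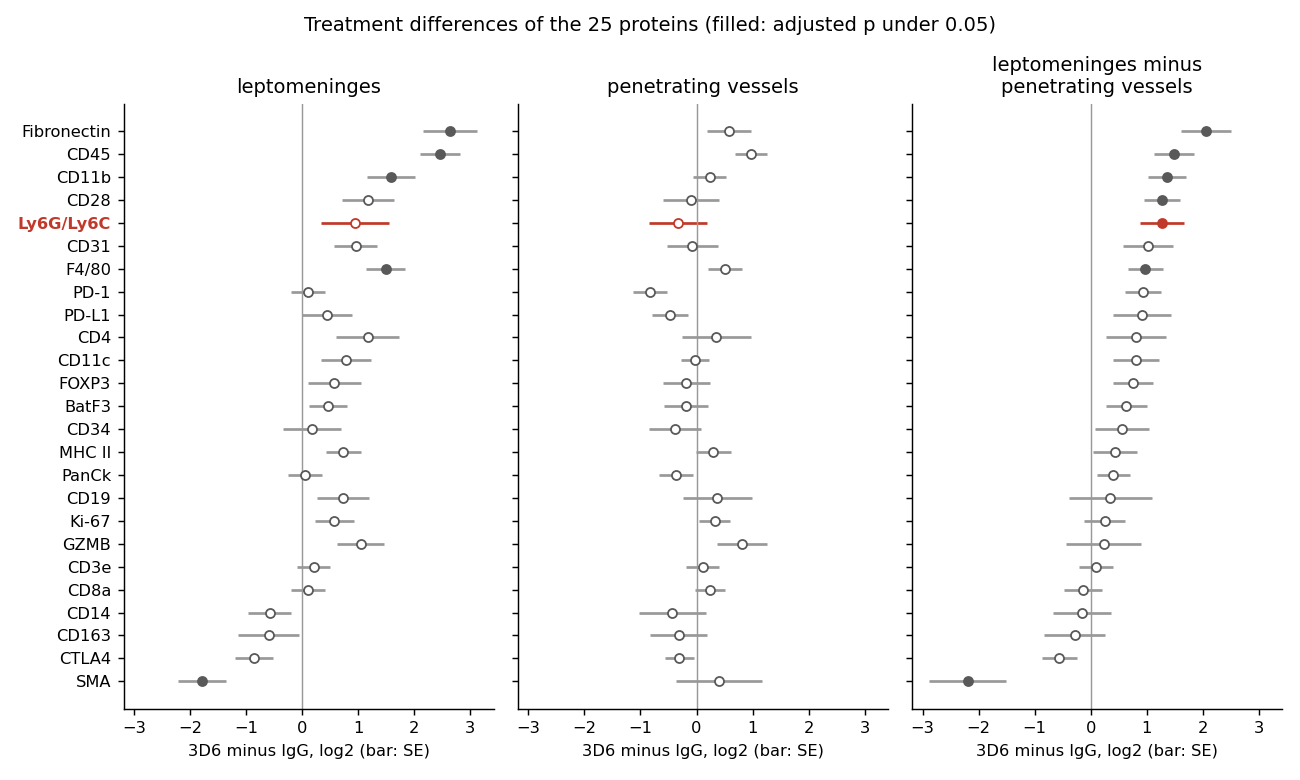
Differences between 3D6 and IgG mice (x axis, log2, with SE) for the 25 proteins (y axis) in the leptomeninges, on penetrating vessels, and for the first minus the second. Filled points passed an adjusted p of 0.05 in limma. Ly6G/Ly6C, in red, is filled only in the last panel, at 1.27.

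The groups separated in the step between the sites within a mouse. Leptomeninges minus penetrating vessels was 0.74, -0.74, -0.21 and -0.06 in 3D6 mice 72, 77, 81 and 83, against -1.31, -1.01 and -1.67 in IgG mice 29, 37 and 49. In those IgG mice the level on penetrating vessels was 2.49, 2.02 and 3.19 times the leptomeningeal one. With the negative controls as denominator, each 3D6 mouse therefore lay above each IgG mouse in this measure. The site difference averaged -0.07 ± 0.61 in 3D6 mice and -1.33 ± 0.33 in IgG mice. The difference of the treatment effect between sites was 1.27 (SE 0.39, limma adjusted p = 0.0417), against a median of 0.63 over the 25 proteins, of which 7 passed (28%). The exact permutation test of the same values gave p = 0.0571 and did not pass 0.05. Of the myeloid proteins, CD11b (1.36), Ly6G/Ly6C and F4/80 (0.97) passed in the limma test, and CD14 (-0.15), CD163 (-0.29) and CD11c (0.81) did not. Relative to CD45, CD11b and F4/80, the difference for Ly6G/Ly6C was -0.22, -0.09 and 0.29 (exact permutation p = 0.629, 0.943 and 0.714).

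This call was close to its threshold. It was kept under 7 of 21 other settings, and the difference itself ranged from 0.38 with division by the housekeepers (adjusted p = 0.761) to 1.61 with no division (adjusted p = 0.0916). These denominators moved the median of all 25 proteins by -0.88 and 0.34. On undivided counts, leptomeninges minus penetrating vessels was -2.83 in IgG mouse 37, against -0.40 and -1.15 in IgG mice 29 and 49. In 3D6 mouse 77 it was -0.43, just below IgG mouse 29. For the housekeepers the same step was -1.87 in mouse 37, against -0.01 and -1.40. Both settings include the penetrating regions of high background in mouse 37. Mouse 49 had no such region, yet its step was larger for the housekeepers than for the count. In 3D6 mice 77, 81 and 83 the step of the count (-0.43, 0.33 and -0.24) was below that of the housekeepers (0.10, 0.77 and -0.04). With the housekeepers as denominator, IgG mouse 49 therefore lay above these mice. The call was also lost without 3D6 mouse 72 (1.00, adjusted p = 0.0691), 81 or 83, and without IgG mouse 29 or 49 (1.10, adjusted p = 0.162).

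**Figure D3:**
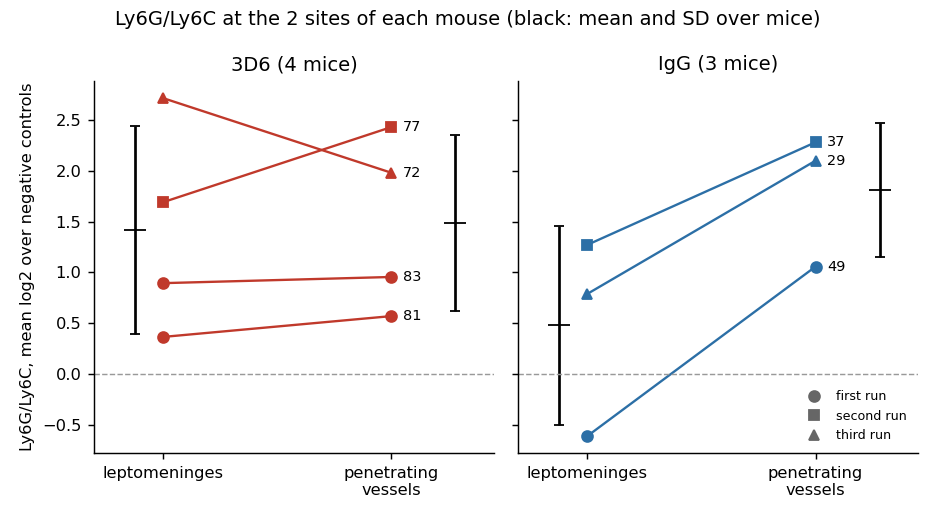
Mean Ly6G/Ly6C of each mouse (y axis, log2 over the negative controls) in the leptomeninges and on penetrating vessels (x axis), with the 4 3D6 mice on the left and the 3 IgG mice on the right. Lines join the sites of a mouse, symbols give the nCounter run, and black bars are mean and SD over mice. All 3 IgG lines climb towards the penetrating vessels, by 1.01 to 1.67, while the 3D6 lines run in both directions.

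Taking both groups with equal weight, Ly6G/Ly6C was lower in the leptomeninges by 0.70 on the log2 scale (SE 0.20, limma adjusted p = 0.0136), in 6 of 7 mice. This site contrast was called for 13 of 25 proteins (52%). An exact test over the 128 sign changes of the 7 mice gave p = 0.0781. Within 3D6 mice alone the site difference was -0.07 (SE 0.26, adjusted p = 0.834), where 7 of 25 proteins passed (28%), and within IgG mice it was -1.33 (SE 0.30, adjusted p = 0.00677), where 9 of 25 passed (36%). In IgG mice Ly6G/Ly6C had the third most negative site difference. CD14 was also lower in the leptomeninges than on penetrating vessels, with a difference of -1.80 over both groups (adjusted p = 0.000540), whereas F4/80 (0.68, adjusted p = 0.00494) and CD45 (0.89, adjusted p = 0.00307) were higher there. For F4/80 and CD45 the site difference was 1.17 and 1.63 within 3D6 mice. Within IgG mice it was 0.19 and 0.15 and was not called (limma adjusted p = 0.596 and 0.726). The site call for Ly6G/Ly6C in both groups was lost with division by the housekeepers (-0.18, adjusted p = 0.587) and without IgG mouse 49 (-0.62, adjusted p = 0.0568), and that within IgG mice was lost without the same mouse (-1.16, adjusted p = 0.0564).

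The level also moved with the nCounter run. The first run held 3D6 mice 81 and 83 with IgG mouse 49, the second 3D6 mouse 77 with IgG mouse 37, and the third 3D6 mouse 72 with IgG mouse 29. For penetrating vessels the mice of these runs averaged 0.86, 2.36 and 2.04, while 3D6 and IgG mice within a run differed by -0.29, 0.15 and -0.12. The run, given treatment, was called for Ly6G/Ly6C on penetrating vessels (limma adjusted p = 0.0235) and for 5 of 25 proteins (20%). In the leptomeninges 0 of 25 (0%) were called for the run by limma and 2 at an unadjusted p under 0.05, among them Ly6G/Ly6C (adjusted p = 0.256). The leptomeningeal difference between 3D6 and IgG was 1.25, 0.42 and 1.93 within the 3 runs, positive in each, and 1.20 (SE 0.37, limma adjusted p = 0.0503) with the run as a block. The difference of the effect between sites was 1.54, 0.27 and 2.05 within the runs, and 1.31 (adjusted p = 0.0827) with the run as a block. Nuclei per region moved with the run as well. In the third run their leptomeningeal and penetrating medians were 111.5 and 94 in 3D6 mouse 72 and 97 and 109.5 in IgG mouse 29, against 11 to 36.5 in the mice of the other runs. Mice 72 and 29, and no others, were also labelled as a second scan, so scan and run cannot be told apart.

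The protein factors differed between mice and sites as well. For Ly6G/Ly6C they ran from 0.819 to 1.37. At both sites, 3D6 mouse 83 shared its factors with IgG mouse 37, and 3D6 mouse 72 with IgG mouse 49, so that the factors cancel between the mice of such a pair. Mouse 72 exceeded mouse 49 by 3.33 at leptomeningeal and by 0.92 at penetrating vessels. Between mouse 83 and mouse 37 the difference was -0.37 at leptomeningeal and -1.33 at penetrating vessels. The difference between the sites was thus positive in both pairs, 2.41 and 0.95, although the leptomeningeal difference itself had opposite signs. Any pair of a 3D6 and an IgG mouse is positive in this measure, so the sign adds nothing. The mice of each pair came from different runs, so treatment and run cannot be told apart within a pair. With the factors removed from all proteins and controls, a setting chosen after the values were seen, the difference of the treatment effect between sites was 1.19 (limma adjusted p = 0.114).

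Regions of 1 vessel bed varied widely within a mouse. The SD over the regions of a mouse averaged 0.58 ± 0.21 in 3D6 mice and 0.67 ± 0.11 in IgG mice in the leptomeninges (exact permutation p = 0.486), and 0.59 ± 0.20 in 3D6 mice and 0.56 ± 0.19 in IgG mice on penetrating vessels (exact permutation p = 0.857). The SD expected from counting alone, from the whole counts of Ly6G/Ly6C and the 3 controls, was 0.33 for the leptomeninges of 3D6 mouse 72, where the measured SD was 0.86. The measured SD exceeded the expected one in 6 of 7 mice at each site. The exception was 3D6 mouse 83, with 0.50 expected and 0.38 measured in the leptomeninges and 0.43 for both on penetrating vessels. In 3D6 mice, 62.5% ± 43.8 of leptomeningeal regions of a mouse were over 2 times the negative controls, against 40.6% ± 40.0 in IgG mice (exact permutation p = 0.514). This share was 100% in 3D6 mice 72 and 77 and 0% in IgG mouse 49, where a level of up to 1.37 times the controls was the highest found.

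The highest regions were few. Leptomeningeal regions 10 and 9 of 3D6 mouse 72 reached 23.2 and 16.3 times the negative controls, with 428 and 437 counts, followed by region 4 of the same mouse at 8.72 times. In region 10, CD11b was 1.53 and CD45 1.32 above the mean of that mouse on the log2 scale, while SMA was 0.07 above it. In region 9, CD11b was 1.01, CD45 0.62 and SMA 0.81 above it, F4/80 was 0.0098 above it, and BatF3 and CD14 differed from it by -0.18 and -0.87. No leptomeningeal region of an IgG mouse exceeded 4.17 times. Over 4 times the controls lay 13 of 48 leptomeningeal regions in 3D6 mice, 9 of them in mouse 72, against 1 of 34 in IgG mice. On penetrating vessels it was 17 of 48 in 3D6 mice and 16 of 36 in IgG mice. The largest raw counts, 3537 to 9490, came from 5 penetrating regions of IgG mouse 37. Their negative controls were at 504 to 1429, and the ratio was 6.39 to 7.47. Without these and 1 further region of high background, the difference of the treatment effect between sites was 1.17 (limma adjusted p = 0.0560).

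Regions that were high in Ly6G/Ly6C were next compared with the other 24 proteins of the same regions, after subtraction of the mean of each mouse. These correlations describe regions that share a mouse, a section, a run and the negative controls in the denominator, and carry no p. Over the 82 leptomeningeal regions the 3 closest partners were BatF3 (r = 0.61), a transcription factor of dendritic cells and activated T cells, CD11b (0.50) and CD14 (0.43). The lowest were SMA (-0.21), the T-cell inhibitory receptor CTLA4 (-0.01) and the endothelial protein CD31 (0.01). Over the 84 penetrating regions BatF3 (0.62), CD11c (0.53) and the checkpoint receptor PD-1 (0.51) were highest, and SMA (-0.46), CTLA4 (-0.28) and CD31 (-0.16) lowest. The correlation with BatF3 was positive in 7 of 7 mice at both sites, and that with CD11c likewise. The median r over all 24 proteins was 0.29 at leptomeningeal and 0.25 at penetrating vessels, and 22 and 21 of the 24 were positive.

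**Figure D4:**
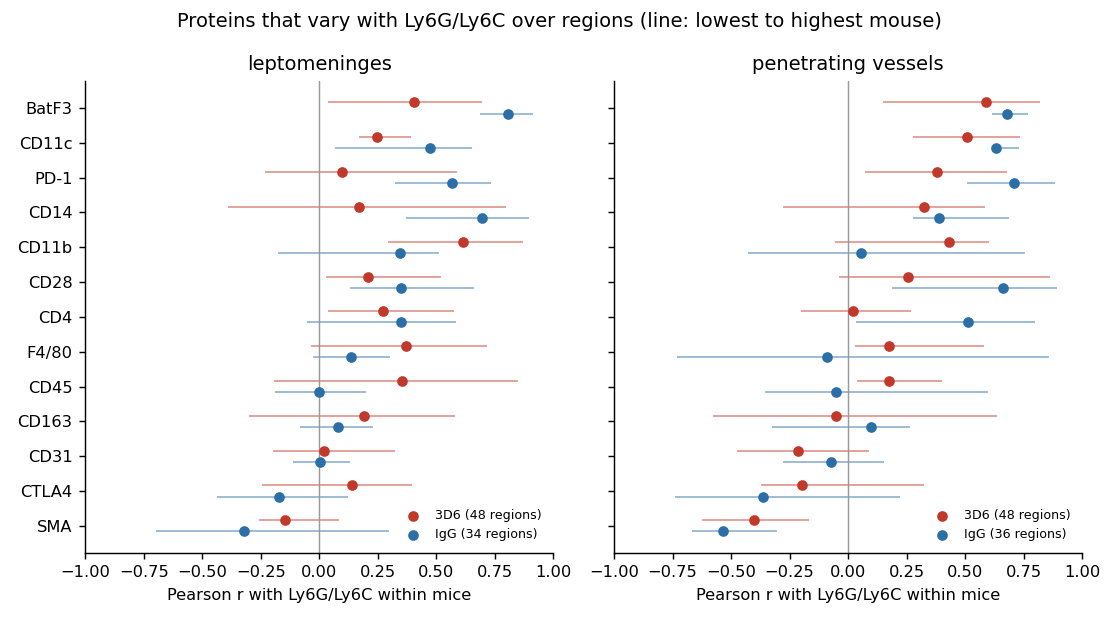
Pearson r between Ly6G/Ly6C and 13 other proteins (y axis) over regions with the mouse mean subtracted (x axis), in the leptomeninges and on penetrating vessels. Points are the r of a group, and thin lines span the lowest to the highest single mouse. BatF3 is positive in both groups at both sites, and SMA is negative in both groups at both sites.

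The partners of the leptomeninges differed in rank between the groups. In 3D6 mice CD11b came first (r = 0.61 over 48 regions, 0.29 to 0.87 in single mice), followed by BatF3 (0.40), with F4/80 at 0.37, CD45 at 0.35 and CD14 at 0.17. In IgG mice BatF3 (0.81 over 34 regions) and CD14 (0.70) came first, with CD11c at 0.47, CD11b at 0.34, F4/80 at 0.13 and CD45 at -0.0027. The link with CD11b in 3D6 mice was 0.48 without the 2 regions farthest from the median Ly6G/Ly6C, regions 9 and 10 of mouse 72. None of the 48 differences of r between 3D6 and IgG mice passed by an exact permutation test of the mice on the Fisher scale, with 0 at an unadjusted p under 0.05. The smallest p, 0.0857, belonged among others to BatF3 in the leptomeninges (adjusted p = 0.885).

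On penetrating vessels BatF3 (0.59 in 3D6 mice, 0.68 in IgG mice) and CD11c (0.51 in 3D6 mice, 0.63 in IgG mice) were close partners in both groups. CD28, a co-stimulatory receptor of T cells, was at 0.26 in 3D6 mice and 0.66 in IgG mice, and CD4 at 0.02 in 3D6 mice and 0.51 in IgG mice. Single mice overlapped, with CD28 from -0.04 to 0.86 in 3D6 mice and from 0.19 to 0.89 in IgG mice. CD4 ran from -0.20 to 0.27 in single 3D6 mice and from 0.03 to 0.80 in single IgG mice. CD45 (0.18 in 3D6 mice, -0.05 in IgG mice), F4/80 (0.17 in 3D6 mice, -0.09 in IgG mice) and CD163 (-0.05 in 3D6 mice, 0.10 in IgG mice) had an r near 0 in each group, but single mice differed. F4/80 ran from -0.73 to 0.86 and CD45 from -0.36 to 0.60 in single IgG mice, and CD163 from -0.58 to 0.64 in single 3D6 mice. SMA was negative in 7 of 7 mice, between -0.67 and -0.17. Without the 2 regions farthest from the median Ly6G/Ly6C, r with SMA was -0.41 in 3D6 mice and -0.32 in IgG mice. Those regions were picked before the mouse mean was subtracted. Region 20 of 3D6 mouse 72 stayed in, at -1.87 in Ly6G/Ly6C and 4.70 in SMA relative to its mouse mean. Region 24 of IgG mouse 37 also stayed in, at -0.98 and 4.87. The relation without these regions was not tested. In the leptomeninges SMA was at -0.15 in 3D6 mice and -0.32 in IgG mice, negative in 5 of 7 mice.

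**Figure D5:**
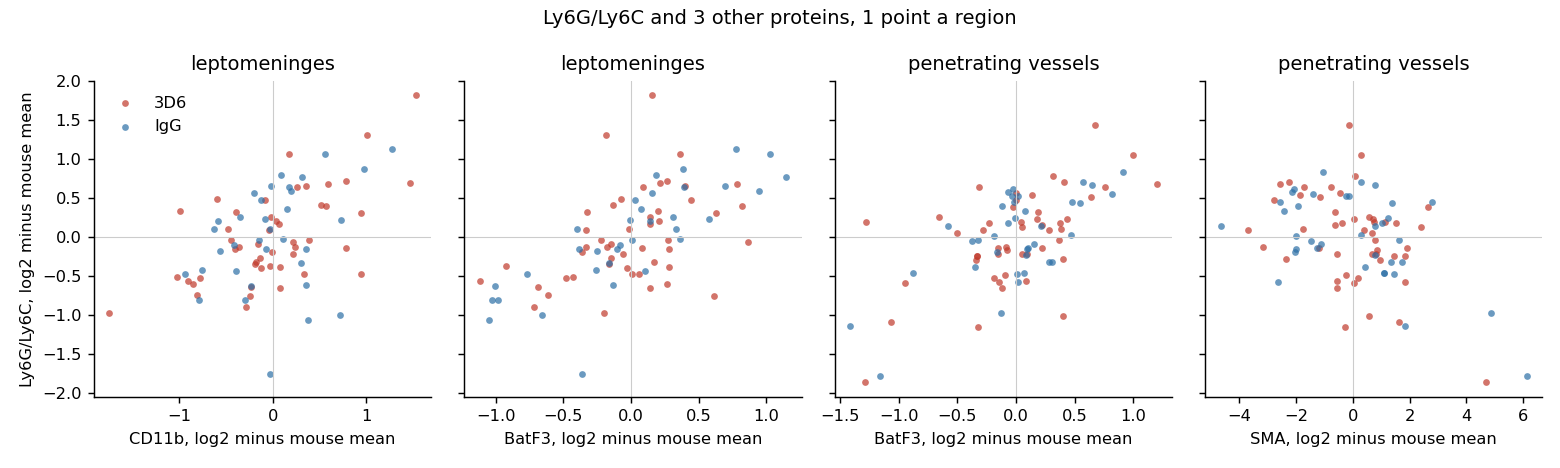
Ly6G/Ly6C (y axis) against CD11b and BatF3 in the leptomeninges and against BatF3 and SMA on penetrating vessels (x axes), as log2 ratios minus the mean of the mouse, 1 point a region. Red points are 3D6 and blue points IgG regions. The clouds climb with CD11b (r = 0.50) and BatF3 (0.61 and 0.62) and fall with SMA (-0.46), where the 2 regions of lowest Ly6G/Ly6C are among the 3 of highest SMA.

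The sign of the SMA relation depended on the denominator. On undivided counts, Ly6G/Ly6C and SMA correlated at 0.33 in the leptomeninges and 0.33 on penetrating vessels over all mice, and all 24 proteins were positive at both sites. With the housekeepers as denominator, r with SMA was 0.34 at leptomeningeal and -0.19 at penetrating vessels. Given the negative controls in a partial correlation of undivided counts it was -0.20 and -0.45. BatF3 and CD11b kept a positive r at both sites under each of these settings, from 0.42 to 0.96. With the negative controls as denominator, CD11b on penetrating vessels was lower, at 0.26 over all mice. It was 0.43 in 3D6 mice and 0.06 in IgG mice, where single mice ran from -0.43 to 0.75. Counts of Ly6G/Ly6C rose with those of the negative controls within mice, with r of 0.66 in 3D6 mice and 0.70 in IgG mice in the leptomeninges, and of 0.72 in 3D6 mice and 0.97 in IgG mice on penetrating vessels. The ratio itself was hardly related to the number of nuclei, with r between -0.26 and 0.02 over sites and groups. Nearest neighbours on the section were more alike in Ly6G/Ly6C than all pairs of regions in 3 of 7 mice in the leptomeninges and in 4 of 7 on penetrating vessels.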

How the data were processed

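Formalin-fixed sections (5 μm per the labels, 10 μm in the methods) were profiled by the authors with GeoMx protein modules of 31 targets and controls on the nCounter. The deposited counts behaved as whole numbers multiplied by positive-control and protein factors, and were not divided by controls or area. The protein factors were inferred from the values, and no source used here states them. For 2 of the 434 protein factors, under 80% of the values became whole. Of 5146 values, 99.6% became whole numbers (within 0.02, wider for very large counts) once both factors were removed. The authors' scaled tables were not used.

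Each count was divided by the 3 negative controls of its region (geometric mean; pseudocount none), and the log2 values were averaged per mouse and compared with limma 3.58.1 (R 4.3.3, Benjamini-Hochberg over 25 proteins, threshold 0.05), unpaired between groups and paired by mouse between sites. Exact permutation tests and correlations used Python 3.11.15, numpy 2.4.6 and scipy 1.17.1, and fits over regions used statmod 1.5.0. Named were the myeloid proteins, CD45, SMA, the proteins the study correlated with SMA, and the 3 highest and 3 lowest correlations per site. Fits were tested on simulated data. Ly6G/Ly6C, the lists and the tests were chosen with earlier results of these data known. Whether mice shared a cage or litter is not given in the sources used here.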

Additional observations from a re-analysis of the deposited data

Results flagged for a closer look

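The difference of the treatment effect between sites for Ly6G/Ly6C, 1.27 on the log2 scale, was past the threshold of its own test (limma adjusted p = 0.0417), with 4 of 4 3D6 mice above every IgG mouse in leptomeninges minus penetrating vessels. The exact permutation test gave p = 0.0571.

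Mouse 72 stood apart from the other 3D6 mice in nuclei per region, with medians of 111.5 in the leptomeninges and 94 on penetrating vessels, against 36.5 and 29.5 in the next highest. The gap was larger than Dixon's critical value for 4 samples, which chance exceeds in about 1 in 20 groups. The same mouse had the highest leptomeningeal Ly6G/Ly6C, and its part in the group difference is given by the value without it, 0.50. The IgG mouse of the same run, which was also labelled as a second scan, had similar medians, 97 and 109.5.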

How the results depend on the processing

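The difference of the treatment effect between sites stayed positive for Ly6G/Ly6C under all 21 settings and kept its call under 7. The call was lost with the housekeepers (0.38), no division (1.61), Rt IgG2b alone (1.33), the median over regions (1.18), the run as a block (1.31), Holm-Sidak (1.27), without regions of few nuclei (1.29, which leaves no leptomeningeal region of IgG mouse 37), without regions of high background (1.17) and with whole counts free of the protein factors (1.19, chosen after seeing the data). Leaving out 1 mouse gave 1.00 to 1.49. The proteins called, 7 as reported, numbered 1 with the housekeepers, 1 with no division, 2 with Rt IgG2b, 3 with the median, 17 with regions and the mouse as a block, 0 with the run, 0 with Holm-Sidak, 3 without few nuclei, 0 with whole counts, and 0 to 6 without 1 mouse, with 0 without IgG mouse 29, 3 without 3D6 mouse 81 or IgG mouse 49 and 4 without 3D6 mouse 83.

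In the leptomeninges, 3D6 against IgG passed only over regions with the mouse as a block (0.94, adjusted p = 0.0447 by limma), where regions share a mouse and the p may be too small. The proteins called, 5 as reported, numbered 11 with Rb IgG, 12 over regions, 1 with Holm-Sidak and 3 to 8 without 1 mouse, the ends without IgG mouse 29 and 37. On penetrating vessels 1 protein was called over regions. Without 1 mouse, the Ly6G/Ly6C difference ran from 0.39 to 1.33 in the leptomeninges and from -0.71 to -0.0236 on penetrating vessels.

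The lower leptomeningeal level over both groups was no longer called with the housekeepers (-0.18), no division (-0.66), Rt IgG2a alone (-0.47), Holm-Sidak (-0.70) or whole counts (-0.56). Without the replicate block, that is without pairing the sites of a mouse, it was -0.70 and not called (limma adjusted p = 0.227). Mice of the 3D6 and IgG groups share no numbers and were not paired by number. They were compared within runs and with the run as a block. Leaving out 1 mouse gave -0.83 to -0.59, with the call lost without IgG mouse 49. The proteins called, 13 as reported, numbered 8 with the housekeepers, 6 with no division, 5 with Holm-Sidak and 9 to 15 without 1 mouse. Within 3D6 mice the site difference changed sign with the housekeepers (0.0128), no division (0.15), Rt IgG2a (0.0772) and whole counts (0.0322), and ran from -0.34 to 0.16 without 1 mouse, positive without mouse 77. There 4 proteins were called with the run as a block, 3 with Holm-Sidak and 5 to 8 without 1 mouse. Within IgG mice it lost its call with the housekeepers (-0.37) and Holm-Sidak (-1.33), and ran from -1.49 to -1.16 without 1 mouse. There 4 proteins were called with no division, 2 with Holm-Sidak and 2 (without mouse 49) to 11 without 1 mouse.

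The difference in SD over regions changed sign with the housekeepers in the leptomeninges (0.0605) and on penetrating vessels (-0.27), and with no division on penetrating vessels (-0.72). Without 1 mouse it ran from -0.19 to -0.03 in the leptomeninges and from -0.0542 to 0.13 on penetrating vessels. The difference in the share of regions over 2 times the controls ran from 1.67 to 41.7 percentage points in the leptomeninges and from -25.0 to 0 on penetrating vessels. Of the correlations under other settings, 77 moved by more than the spread between mice and 469 did not. The causes were not tested. Low counts per region (median 37) and groups of 4 and 3 mice limit the precision.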
